A study of Homo sapiens with 4 samples.

Results

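The unplaced and unlocalized contigs of the human assembly hg19 are stretches of sequence that were read but never fitted into a chromosome. All peaks on sequences whose name contains gl000 were taken, which gave 135 of 326823 peaks in list 1 and 126 of 265052 in list 2. These names cover 59 contigs with a summed length of 6.11 Mb. Of these contigs, 20 are assigned to a chromosome without a position there, written for example as 9_gl000199, and 39 are assigned to none and begin with Un.

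The histone mark H3K9me3 was mapped by ChIP-seq, the sequencing of DNA pulled down with an antibody. The cells were U2OS, a human osteosarcoma cell line, here under the label KRAB-IDR3-TCF3, which all samples share and which the labels do not explain. There were 2 samples precipitated with an Abcam antibody against H3K9me3 and 2 input samples without antibody, all from cells fixed with formaldehyde. The values came from 2 broad peak lists, which the labels tie to the samples in a contradictory way. List 2 is named by both antibody samples and list 1 by both input samples, yet each list names its peaks as those of an immunoprecipitation, so neither list was given to a group and each is described on its own. A peak list has no read counts, so depth is unknown and no value here has a replicate error.

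H3K9me3 is written by enzymes such as SUV39H1 and SETDB1 and is bound by HP1 proteins, and together they form compact, mostly silent chromatin. The mark is best known from tandem satellite repeats at and beside centromeres. It is also found on silent copies of the ribosomal RNA genes, which lie in long tandem arrays on the short arms of the acrocentric chromosomes. An assembly such as hg19 holds far fewer copies of both kinds of repeat than a cell does, and several of the sequences it could not place are of these kinds. Un_gl000220 is known to carry ribosomal DNA and Un_gl000226 satellite DNA. No sequence or annotation of hg19 was used here, so these contents were not checked, and no peak was placed on a part of the ribosomal repeat.

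Most of the contigs carried no peak. Peaks lay on 18 of the 59 contigs in list 1 and on 22 in list 2, and every contig with a peak in list 1 also had one in list 2. The other 37 contigs, with 4.11 Mb or 67.3% of the summed length, had no peak in either list. Contigs without a peak made up 12 of the 20 assigned to a chromosome and 25 of the 39 Un contigs. Long contigs were not better represented. Of the 26 contigs over 100 kb, 19 (73.1%) had no peak in list 1 and 18 (69.2%) had none in list 2. In windows of 100 kb on chromosomes 1 to 22 and X, the shares without a peak were 1.34% in list 1 and 3.38% in list 2. These windows lay outside stretches of at least 1 Mb without a peak in either list. Leaving out such stretches lowers these shares, and the shares with them kept in are not given here. How many reads could be aligned to each contig is unknown, and its part in the absence of peaks was not tested.

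Peaks covered little of the contigs as a whole. The covered length was 456 kb in list 1, or 7.47% of all contigs, against 48.1% of chromosomes 1 to 22 and X with the long peak-free stretches taken out. In list 2 it was 316 kb or 5.17%, against 27.0% of the chromosomes. The ratio of these shares was 0.155 in list 1 and 0.191 in list 2. Over the contigs with a peak in either list alone, the covered shares were 22.9% and 15.8%, and over the spans of these contigs to the last peak end the ratios were 0.545 and 0.672. Among the peaks with a −log10 q of at least 2, the authors' measure of a peak's significance after correction, the order turned. Their covered share on the contigs was then 18.4 times that on the chromosomes in list 1 and 4.08 times in list 2. On the contigs these were 11 peaks in list 1 and 14 in list 2. The widest of them, on Un_gl000220, measured 27.8 kb in list 1 and 26.2 kb in list 2. This ratio was not computed without Un_gl000220 and Un_gl000226. Most contig peaks behind the covered shares had a q above 0.05. A q of at most 0.05 was reached by 11 of 135 in list 1 and 18 of 126 in list 2. On chromosomes 1 to 22 and X, 0.190% and 2.07% of the peaks reached it.

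The peaks that were present were of ordinary width. The median width on the contigs was 1703 bp in list 1 (quartiles 732 and 3635 bp), against 1973 bp on the chromosomes (quartiles 864 and 4715 bp). In list 2 it was 1420 bp (quartiles 587 and 2651 bp), against 1564 bp on the chromosomes (quartiles 757 and 3373 bp). The fold enrichment, the authors' ratio of a peak's signal over the background of the peak caller, had a median of 1.82 on the contigs of list 1 and 1.64 on its chromosomes. In list 2 the medians were 2.28 and 2.12, in the same order. The lowest fold in the list, 1.44 in list 1 and 1.90 in list 2, was also reached on the contigs. No fold was corrected for sequence that is present in more copies in the cells than in the assembly.

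Strongly enriched peaks made up a larger share of the contig peaks than of all peaks. A fold of at least 5 was reached by 5 of the 135 contig peaks in list 1 (3.70%, exact binomial 95% interval 1.21 to 8.43%), where it was reached by 0.00704% of all peaks. In list 2 it was reached by 11 of 126 (8.73%, 4.44 to 15.1%), where it was reached by 0.0136% of all peaks. The intervals cover counting error only, and peaks of 1 contig share their source. Without Un_gl000220 and Un_gl000226 the shares were 1.79% in list 1, from 2 peaks, and 5.56% in list 2, from 6 peaks. At a fold of at least 3 the shares were 8.15% in list 1 and 13.5% in list 2, where 0.107% and 1.15% of all peaks reached it. Of all peaks with a fold of at least 5, contig peaks were 21.7% in list 1 and 30.6% in list 2. The contig peaks with a fold of at least 5 lay on the same 4 contigs in both lists, namely Un_gl000226, Un_gl000220, 9_gl000199 and 19_gl000208. In list 1, 11 contig peaks had a −log10 q of at least 2 (8.15%, against 0.0456% of all peaks), and in list 2 there were 14 (11.1%, against 0.259% of all peaks). All 11 of list 1 lay on these 4 contigs, and 13 of the 14 of list 2 did, the other being on Un_gl000214.

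**Figure D1:**
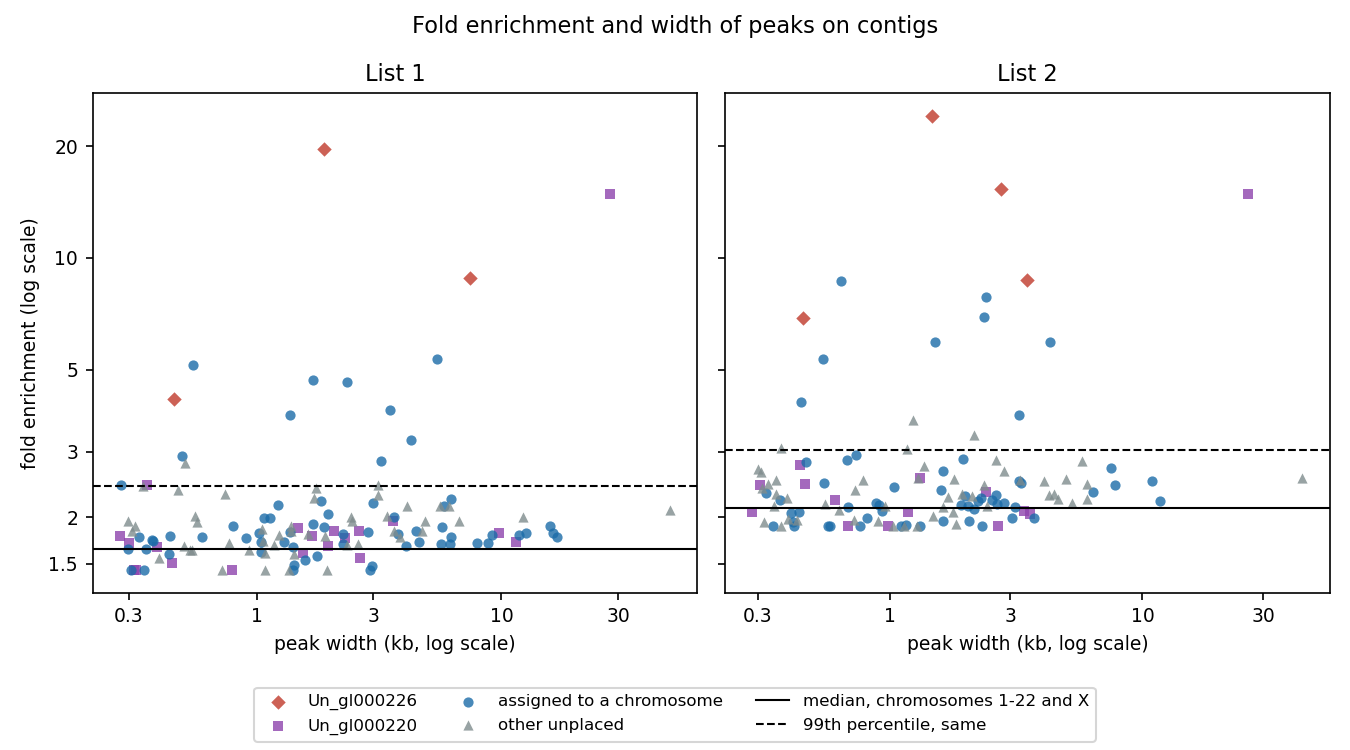
Fold enrichment (vertical, log scale) against width in kb (horizontal, log scale) of every peak on a contig, in list 1 (left) and list 2 (right), with symbols by kind of contig. The solid and dashed lines mark the median and the 99th percentile of fold on chromosomes 1 to 22 and X, 1.64 and 2.42 in list 1 and 2.12 and 3.03 in list 2. Most contig peaks lie near the median line, while those of Un_gl000226, the widest peak of Un_gl000220 and part of those on contigs assigned to a chromosome lie far above it.

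Un_gl000226, the short satellite contig, had the highest folds of all contigs and was the only contig with every peak above a fold of 4 in both lists. In list 1 its 3 peaks ran from 1 to 7438 with a fold of 8.83, from 9500 to 9959 with a fold of 4.17, and from 12799 to 14690 with a fold of 19.7. In list 2 its 4 peaks ran from 2 to 3485 with a fold of 8.74, from 4674 to 7416 with a fold of 15.3, from 9437 to 9889 with a fold of 6.90, and from 13258 to 14732 with a fold of 24.1. The lists therefore placed peaks on the same 3 stretches, and list 2 divided the first of them in 2 pieces. The strongest peak ended 318 bp from the end of the contig in list 1 and 276 bp from it in list 2, and the first peak began at or next to the opposite end. The strongest peak ranked 5 by fold among all peaks of list 1 and 4 among those of list 2.

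Peaks covered 65.2% of Un_gl000226 in list 1 and 54.3% in list 2. The stretches covered in both lists made up 53.6% of the contig, or 82.2% of what list 1 covered and 98.7% of what list 2 covered. The longest stretch free of peaks in both lists was 2.84 kb, from 9960 to 12798, just before the strongest peak.

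Un_gl000220, the contig with ribosomal DNA, held 1 very broad and strongly enriched peak beside many weak ones. The broad peak ran from 118023 to 145827 in list 1 (27.8 kb, fold 14.9) and from 120084 to 146263 in list 2 (26.2 kb, fold 14.9). The 25744 bp that both versions share were 92.6% of the peak of list 1 and 98.3% of that of list 2. By fold it ranked 8 in list 1 and 9 in list 2. It was also among the wider peaks of each list, at rank 4526 and 1376 by width. The −log10 q was 33.2 in list 1 and 33.7 in list 2, so this peak was nearly equal in both lists in position, width and enrichment.

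The remaining peaks of Un_gl000220 had folds near the medians of the lists. In list 1 the 19 others had folds from 1.44 to 2.44 with a median of 1.72 and were 277 to 11452 bp wide. In list 2 the 13 others had folds from 1.90 to 2.77 with a median of 2.08 and were 286 to 3598 bp wide. The broad peak alone made up 38.6% of the covered length of the contig in list 1 and 58.8% in list 2. Before it lay 15.4 kb without a peak in either list, from 102281 to 117705. In list 2 a narrow peak from 117706 to 118147 (fold 2.77) lay between this stretch and the broad peak. Past the end of the broad peak no peak followed in either list, over 16.0 kb in list 1 and 15.5 kb in list 2. In all, peaks covered 44.6% of Un_gl000220 in list 1 and 27.5% in list 2. Of the 20 peaks of list 1, 11 shared at least 1 bp with list 2, and all 14 of list 2 shared with list 1. Over all peaks these shares were 50.9% in list 1 and 90.1% in list 2.

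**Figure D2:**
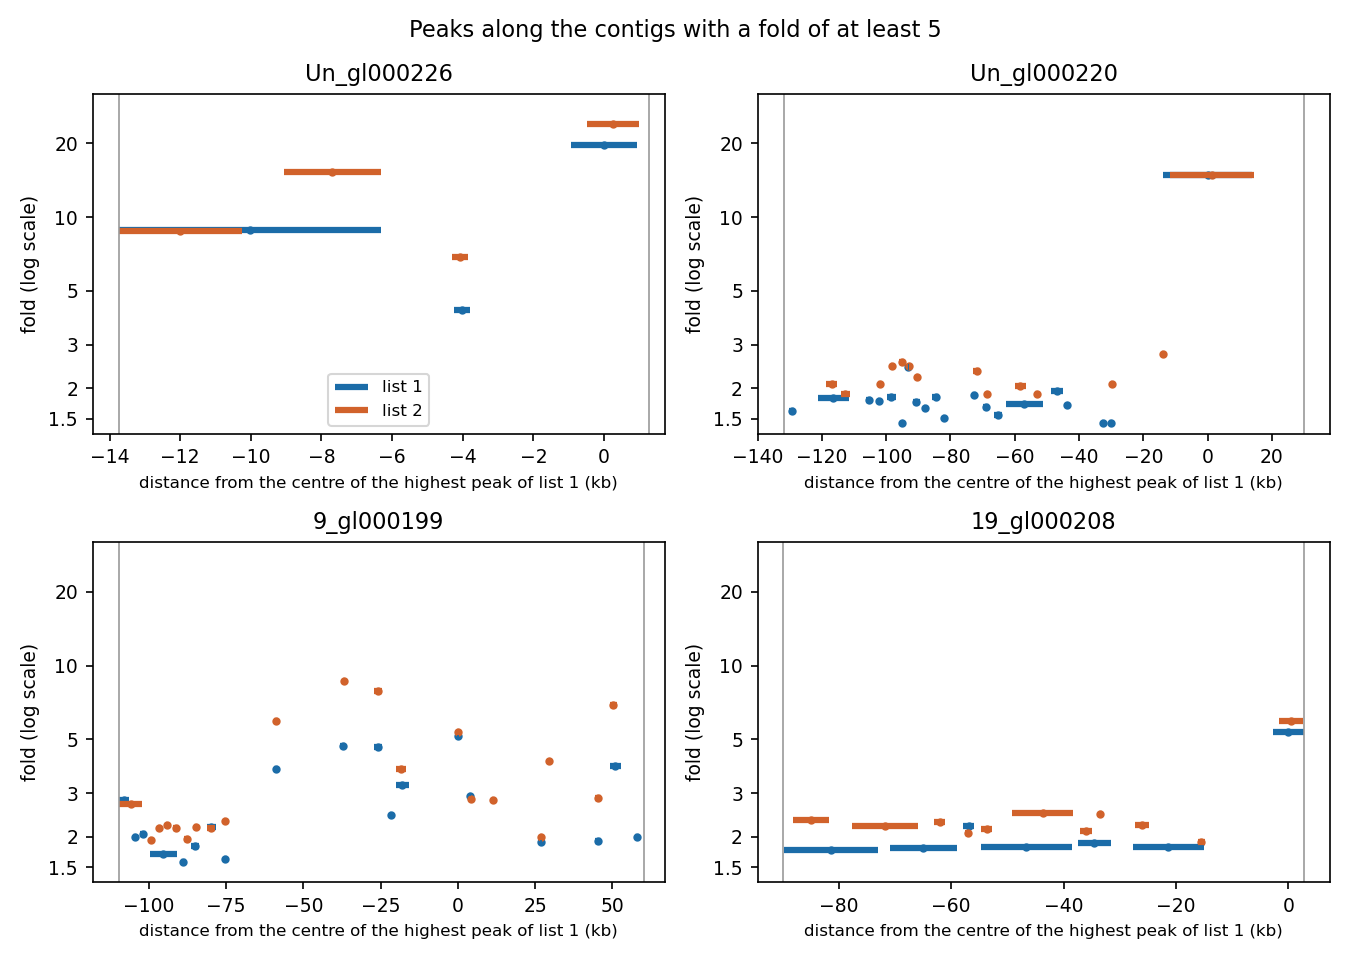
Peaks along the 4 contigs with a fold of at least 5, drawn as bars at their fold (vertical, log scale) against the distance in kb from the centre of the highest peak of list 1, with list 1 in blue and list 2 in orange; grey lines mark the contig ends. On Un_gl000220 and 19_gl000208 a single peak stands above the others in each list, on 9_gl000199 several high peaks are scattered at both sides of the centre peak, and on Un_gl000226 all folds are at least 4.17.

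Contig 9_gl000199 carried several strong peaks, here those with a fold of at least 3, in place of 1 broad one. It held 19 peaks in list 1 and 20 in list 2. In list 1, 6 of the 19 had a fold of at least 3 (3.24 to 5.14), which 0.107% of all peaks of that list reached. In list 2, 7 of the 20 did (3.76 to 8.68), against 1.15% of all peaks. The 8 peaks of list 1 before the first such peak had folds from 1.57 to 2.83, and the 9 of list 2 before it had folds from 1.94 to 2.72. The strong peaks of list 1 began at 50312, 71633, 82729, 89636, 109478 and 158890. Each overlapped a strong peak of list 2, whose folds were 5.93, 8.68, 7.86, 3.76, 5.34 and 6.91. The folds of list 1 at the same places were 3.76, 4.69, 4.63, 3.24, 5.14 and 3.89. The order of the peaks by fold therefore differed between the lists, with the place at 109478 the highest in list 1 and that at 71633 the highest in list 2. The seventh strong peak of list 2, from 139132 to 139577 with a fold of 4.08, had no partner in list 1.

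Contig 19_gl000208 combined dense coverage of low fold with 1 strong peak at its end. Peaks covered 76.0% of it in list 1 and 48.3% in list 2. The strong peak began at 87225 in list 1, was 5465 bp wide, ran to the last base of the contig and had a fold of 5.33. In list 2 it ran from 88237 to 92551 and had a fold of 5.94. The 6 other peaks of list 1 had folds from 1.77 to 2.21 and were up to 16.9 kb wide. The 10 others of list 2 had folds from 1.90 to 2.50 and were up to 11.7 kb wide.

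The contigs without a peak of fold at least 5 carried most of the peaks, 86 in list 1 on 14 contigs and 77 in list 2 on 18 contigs. Their median fold was 1.78 in list 1 and 2.25 in list 2, and their highest fold was 2.80, on Un_gl000211 in list 1, and 3.65, on Un_gl000214 in list 2. Some of them combined a high covered share with low folds. The small contig 18_gl000207 was covered most of all contigs, at 88.9% in list 1 and 66.2% in list 2. This was by 1 peak in each list, with a fold of 1.81 and 2.19 and a −log10 q of 0.302 and 0.599. Un_gl000216 held the widest contig peak, 48.8 kb in list 1 (fold 2.10) and 42.9 kb in list 2 (fold 2.56). It alone took up 28.3% and 24.9% of the contig, and its −log10 q was 0.538 and 0.966. The peaks of 18_gl000207 and this widest peak of Un_gl000216 thus stayed short of a q of 0.05 in both lists. With its other peaks Un_gl000216 was covered 41.9% in list 1 and 37.8% in list 2. This was the closest agreement by shared length of all contigs, with a Jaccard index (shared over joint covered length) of 0.818.

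Of the other contigs over 100 kb, 17_gl000205 was covered 25.0% in list 1 and 12.0% in list 2. Un_gl000214 followed with 11.8% and 9.59%, 4_gl000193 with 8.67% and 3.48%, and Un_gl000211 with 4.43% and 3.70%, each with list 1 given before list 2. Un_gl000211 was also the contig on which the lists shared least among those with peaks in both, at a Jaccard index of 0.197. List 2 alone had peaks on 4 contigs, with 5 peaks on Un_gl000230 (8.45% covered), 3 on Un_gl000233 (11.5%), 1 on 11_gl000202 (1.09%) and 1 on Un_gl000219 (1.00%). Their folds reached at most 3.07, on Un_gl000233. The 5 Un contigs not named so far that had peaks in both lists, other than Un_gl000231, were covered 6.48% to 42.5% in list 1 and 3.48% to 32.1% in list 2. Their highest folds were 2.15 to 2.44 in list 1 and 2.50 to 3.33 in list 2.

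**Figure D3:**
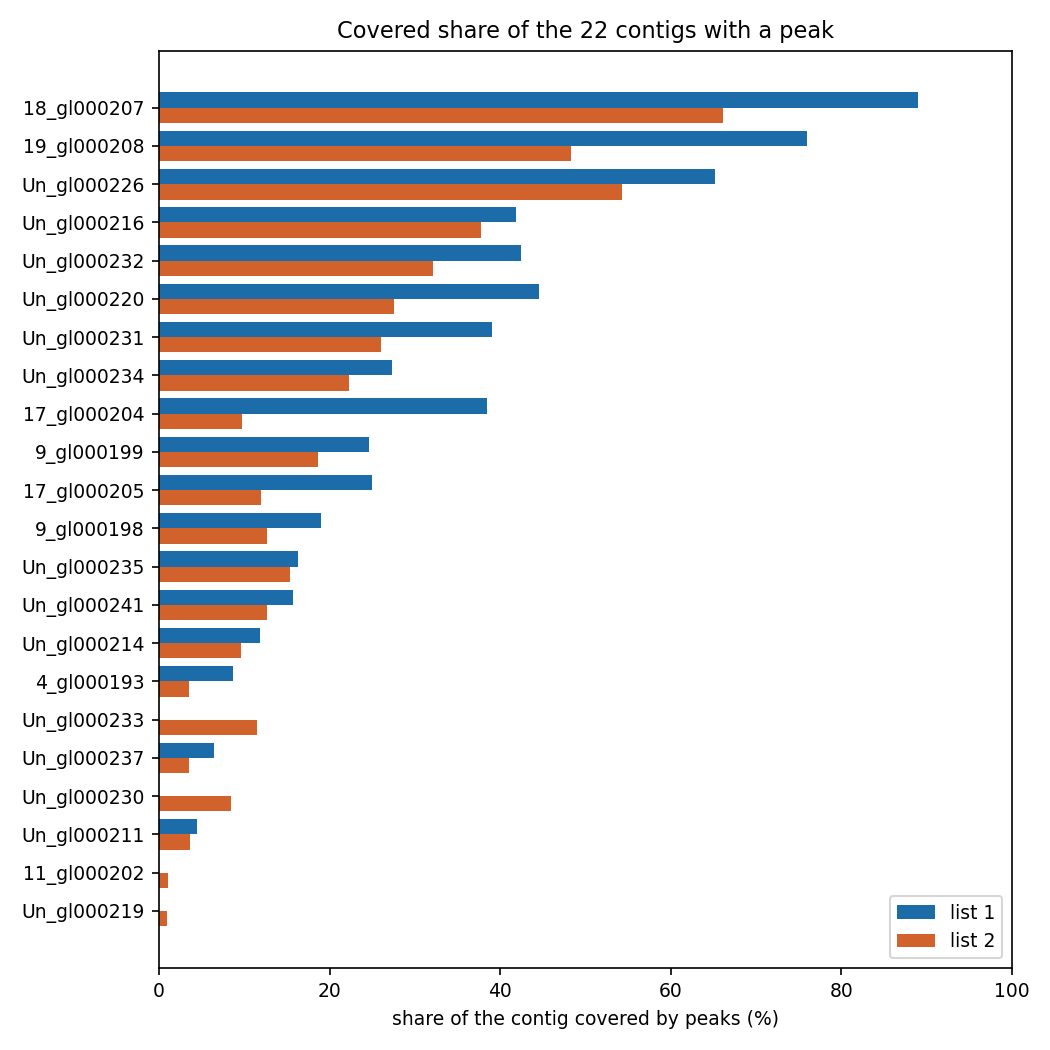
Share of the contig's hg19 length covered by peaks (horizontal, %) for the 22 contigs with a peak, ordered by the mean of the lists, with list 1 in blue and list 2 in orange. List 1 is higher on the 18 contigs with peaks in both lists, from 88.9% against 66.2% on 18_gl000207 to 4.43% against 3.70% on Un_gl000211, and 4 contigs have a bar of list 2 only.

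As deposited, list 1 covered more than list 2 on each of the 18 contigs with peaks in both. The widest gaps were 28.7 percentage points on 17_gl000204 (38.4% in list 1 and 9.73% in list 2), 27.8 on 19_gl000208, 22.8 on 18_gl000207, 17.0 on Un_gl000220 and 13.1 on Un_gl000231 (39.1% and 26.0%). The contigs were ordered alike, with a Spearman's rho of 0.905 and a Pearson's r of 0.944 over the 22 contigs. This is a description across contigs, which share the cell line and the assembly. Fold ran the other way, since list 2 had the higher fold in 102 of 113 overlapping pairs of contig peaks. The lists end at different lowest folds, so this order cannot be told apart from their limits. The order in covered share depends on the limits too. Without its peaks under the lowest −log10 p of list 2, list 1 covered 3.78% of all contigs, below the 5.17% of list 2. Single contigs under this limit are not given here.

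With the lists as deposited, most contig peaks had a partner in the other list. In list 1, 87 of 135 contig peaks (64.4%, exact 95% interval 55.8 to 72.5%) overlapped a peak of list 2 by at least 1 bp, against 50.8% on chromosomes 1 to 22 and X and 50.9% of all peaks. In list 2, 107 of 126 (84.9%, 77.5 to 90.7%) overlapped one of list 1, against 90.1% on the chromosomes and 90.1% of all peaks. This share of list 2 was 41.3% when list 1 was limited to the −log10 p range of list 2. The share over all peaks under this limit is not given here, so 41.3% has no value to be set against. A partner that shared at least 50% of both peaks was found for 42 contig peaks of each list, or 31.1% in list 1, against 16.1% of all peaks, and 33.3% in list 2, against 19.9%. The shared length was 272 kb, which was 59.6% of the covered length of the contigs in list 1 and 86.1% in list 2. On the chromosomes these shares were 49.5% and 88.2%. The Jaccard index was 0.543 on the contigs and 0.464 on the chromosomes. All 11 contig peaks of list 1 with a −log10 q of at least 2 overlapped one of the 14 of list 2. The share over all peaks with such a q is not given here, so this count is not particular to the contigs.

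Contigs assigned to a chromosome mostly had less coverage than that chromosome. Of these 20 contigs, drawn from 10 chromosomes, 13 had no peak in list 1 and 12 had none in list 2. Another 4 in list 1 and 6 in list 2 had peaks but lay below their chromosome. Both lists put 19_gl000208 and 18_gl000207 above their chromosome. 19_gl000208 was covered 76.0% in list 1 against 41.3% of chromosome 19, and 48.3% in list 2 against 27.7%. The other contig of chromosome 19, 19_gl000209, had no peak in either list. 18_gl000207 was covered 88.9% against 46.9% of chromosome 18 in list 1, and 66.2% against 24.5% in list 2. 17_gl000204 was covered 38.4% in list 1, against 38.0% of chromosome 17, but 9.73% in list 2, against 20.3%.

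9_gl000199, with its strong peaks, was covered 24.6% against 43.9% of chromosome 9 in list 1 and 18.6% against 23.6% in list 2. 9_gl000198 was covered 19.1% and 12.7%, and the 2 other contigs of chromosome 9 had no peak. Contigs assigned to the same chromosome thus differed in coverage.

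**Figure D4:**
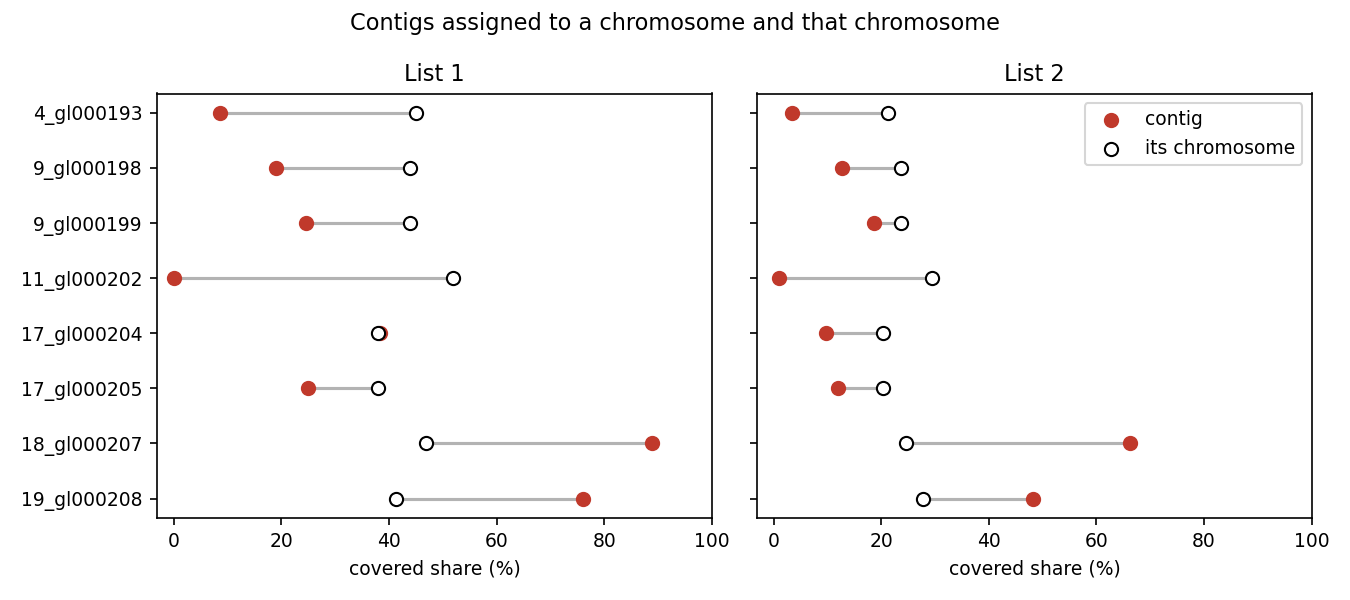
Covered share (horizontal, %) of the 8 contigs assigned to a chromosome that had a peak in either list (filled) and of that chromosome without its long peak-free stretches (open), in list 1 (left) and list 2 (right). 18_gl000207 and 19_gl000208 lie to the right of their chromosome in both lists, 17_gl000204 lies within 1 point of it in list 1, and the others lie to the left.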

How the data were processed

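The authors deposited 2 broad peak lists on hg19. The submitters' processing notes name MACS2 2.2.7.1, Bowtie2 2.5.0, Trim Galore 0.6.7 and bcl2fastq 2.17 without their roles. Not given in the sources used here are the cutoff, the control, the handling of reads that align to several places, and any pooling. Fold enrichment is the authors' ratio of signal over background. Each peak also has a −log10 p and a −log10 q, deposited by the authors. The deposited display score was not used. Without read counts, depth is unknown.

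Covered shares used the hg19 lengths of the 59 contigs, listed from general knowledge of the assembly. No peak ran past such a length. Chromosomes 1 to 22 and X were measured to the last peak end, less stretches of at least 1 Mb without a peak in either list. An overlap needed at least 1 bp. Shares of peaks carry exact binomial 95% intervals. No test across samples was possible, and contigs are not replicates. Named were Un_gl000220, Un_gl000226, contigs with a fold of at least 5, the 5 most and 5 least covered of the contigs over 100 kb with a peak, contigs with peaks in 1 list only, and the 5 with the widest gap between lists. 17_gl000204, 9_gl000198 and 19_gl000209 in the comparison with chromosomes illustrate it and were chosen after their values were seen. The contigs, the limits and this rule were chosen with earlier results of these data known. Results were recomputed under other limits on peaks, contigs, lengths and overlap, given in the closing section. Coordinates are 1-based. Covered and shared lengths matched a base by base count in 20 of 20 simulated sets. Tools were scipy 1.17.1, pandas 2.3.3, numpy 2.4.6 and matplotlib 3.10.9 under Python 3.11.15.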

Additional observations from a re-analysis of the deposited data

How the results depend on the processing

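No paired analysis was possible because neither list belongs to a sample. Covered shares depend on which contigs and peaks enter, and the depth is unknown. With −log10 q of at least 2, 11 contig peaks remained in list 1 and 14 in list 2, the covered shares were 0.929% and 0.835%, the median widths 2345 and 1934 bp, and 100% of the peaks of list 1 (11 of 11) and 85.7% of those of list 2 had a partner. The ratio of contigs to chromosomes then turned to 18.4 in list 1 (0.155 with all peaks) and 4.08 in list 2 (0.191 with all peaks). Without peaks under the lowest −log10 p of list 2, list 1 kept 55 contig peaks and covered 3.78%, below the 5.17% of list 2. Its ratio was 0.185, and 80.0% of its peaks overlapped list 2, while 41.3% of those of list 2 then overlapped. The shares of all peaks with a partner under these limits on q and p are not given here.

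The covered shares in list 1 and list 2 were 26.2% and 18.1% over spans to the last peak end of contigs with a peak, 22.9% and 15.8% over the full length of these contigs, 6.97% and 4.36% for peaks above the list's median fold, and 6.31% and 4.43% without Un_gl000220 and Un_gl000226. Base pairs in both lists covered 4.45%. The ratio to the chromosomes was 0.545 and 0.672 over spans to the last peak end, 0.210 and 0.275 with equal weights, and 0.166 and 0.205 with long peak-free stretches left in the chromosomes, so it stayed below 1 except at the strict q. With a reciprocal overlap of 50%, 31.1% of the contig peaks of list 1 and 33.3% of those of list 2 had a partner. Of windows of 200 kb, again outside the long peak-free stretches, 0.764% and 1.40% had no peak. The full length of contigs with a peak and the windows of 200 kb were chosen after seeing the data. The share of contig peaks above the fold limit was 8.15% and 13.5% at a fold of at least 3, where the share over all peaks was also higher, and 1.79% and 5.56% without Un_gl000220 and Un_gl000226, against 3.70% and 8.73%. The median width was 1379 and 1205 bp on contigs over 100 kb alone.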
